A study of Sus scrofa with 14 samples.

Results

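The genes that make lactose and supply its glucose were followed through the pig mammary gland from late pregnancy to involution. The set was chosen by name and comprised B4GALT1, SLC2A1, UGP2, HK1, HK2, PGM1 and SLC35A2. Of these 7 genes, 6 names occurred among the 30071 gene identifiers of the count tables. SLC2A1 was not analysed here.

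Nuclei were sequenced from the mammary glands of 10 sows, 2 at each of 5 stages. The stages were day 90 of gestation (G90), days 0 and 20 of lactation (L0 and L20), and 2 and 7 days after natural involution (PI2 and PI7). All sows were multiparous, were in their second breeding cycle and received a standard diet, and tissue was taken from the same region of the gland. Spatial sections were available of 1 gland at G90 and 1 at PI2, and cells were sequenced from 1 sample of colostrum (L0) and 1 of mature milk (L20). The labels gave no breed or age, and although sections and nuclei were made from parts of the collected glands, which sows gave the sections and the milk was not stated.

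Lactose is the main sugar of milk and draws water into it. Glucose enters the secretory cell through carriers such as SLC2A1, hexokinases trap it as glucose 6-phosphate, PGM1 turns this into glucose 1-phosphate, and UGP2 couples that to UTP to give UDP-glucose. SLC35A2 carries UDP-galactose into the Golgi, and the galactosyltransferase B4GALT1 joins galactose to glucose when it is bound to alpha-lactalbumin, the product of LALBA. B4GALT1 also galactosylates glycoproteins in most tissues, UGP2 serves glycogen synthesis, and the hexokinases serve glycolysis, so none of the members is particular to milk.

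The members lie on 5 chromosomes of Sscrofa11.1. B4GALT1 (ENSSSCG00000035454) spans bases 33317295 to 33381285 of chromosome 10 on the forward strand. UGP2 (ENSSSCG00000008368) spans 77975450 to 78032471 of chromosome 3 on the reverse strand, and HK2 (ENSSSCG00000008261) spans 68155656 to 68231187 of the same chromosome and strand. HK1 (ENSSSCG00000010253) spans 72383328 to 72460927 of chromosome 14 on the forward strand. SLC35A2 (ENSSSCG00000024841) spans 42981801 to 42992091 of chromosome X on the reverse strand. The gland tables held 122918 UMIs of B4GALT1, 101128 of UGP2, 20496 of HK1, 7021 of HK2 and 4736 of SLC35A2, UMIs being counts of single captured transcripts.

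The name PGM1 could not be tied to the gene. The identifier called PGM1 in the count tables (ENSSSCG00000003812, chromosome 6) is named EFCAB7 in the RefSeq table. It was listed for 2 of the 10 glands, with 2 UMIs in all, and for no milk library. Where it was not listed, a count of 0 and an absent gene cannot be told apart. The identifier that the count tables call EFCAB7 (ENSSSCG00000003814) lies beside it and held 16406 UMIs in the glands, and the RefSeq table gives it no symbol. Which of these carries the reads of PGM1 cannot be told apart here, so no level is given for PGM1 in nuclei. PGM1 as labelled did not pass the filter on low counts, and 5 of the 7 members entered the tests.

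The promoters are shown for B4GALT1 and UGP2, which were called higher in epithelial nuclei than in each other class tested, and for HK1, which was not. Each is the 250 bases before the RefSeq gene start, read 5′ to 3′ on the strand of the gene. Capitals mark GGGCGG, a GC box, or its complement CCGCCC. The windows are chr10:33317045-33317294 (forward strand), chr3:78032472-78032721 (reverse strand) and chr14:72383078-72383327 (forward strand).
B4GALT1: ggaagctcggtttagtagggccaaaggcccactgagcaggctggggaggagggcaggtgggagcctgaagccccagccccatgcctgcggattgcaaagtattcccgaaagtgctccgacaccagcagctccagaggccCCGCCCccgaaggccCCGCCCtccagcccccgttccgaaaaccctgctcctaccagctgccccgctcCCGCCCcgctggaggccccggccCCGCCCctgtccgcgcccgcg
UGP2: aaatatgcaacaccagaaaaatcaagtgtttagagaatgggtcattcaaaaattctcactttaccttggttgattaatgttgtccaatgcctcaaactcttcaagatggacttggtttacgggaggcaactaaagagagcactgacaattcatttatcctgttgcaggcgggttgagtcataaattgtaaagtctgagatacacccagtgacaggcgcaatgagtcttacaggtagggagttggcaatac
HK1: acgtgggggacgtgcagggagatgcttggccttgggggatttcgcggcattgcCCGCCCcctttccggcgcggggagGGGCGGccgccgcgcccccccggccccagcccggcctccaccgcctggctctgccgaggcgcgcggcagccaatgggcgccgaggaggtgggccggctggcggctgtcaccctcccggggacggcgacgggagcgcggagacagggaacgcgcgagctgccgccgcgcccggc
The window of B4GALT1 held 4 GC boxes at a GC content of 71.2%, that of HK1 held 2 at 79.2%, and that of UGP2 held none of these letters at 40.8%. Of 19544 gene windows of the same length, 45.9% held GGGCGG on either strand. The STAT5 motif TTCNNNGAA occurred in 6.10% of all windows and the E box CACGTG in 6.39%, and neither stood in the windows of the 5 members tested. No motifs overlapped. UGP2 has several annotated starts, and other starts were not searched.

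Nuclei were placed in classes by lists of 10 marker genes, of which 9 were found for epithelial, myoepithelial and fibroblast nuclei and 10 for the other classes tested, with at least 2 markers of a list and no other list with as many. In all, 126833 of 128233 nuclei passed the limits on genes and mitochondrial UMIs, and 101567 of these fell in a class, 19744 of them with exactly 2 markers. Total UMIs per gland ranged from 18962138 to 53165191 and median UMIs per nucleus from 1382 to 2496. Libraries shared at most 284 barcodes, or 1.52% of the smaller library. Check markers outside the gate were highest in their own class for 4 of 5 epithelial, 4 of 5 myoepithelial, 5 of 5 fibroblast, 4 of 4 endothelial, 5 of 5 myeloid and 5 of 5 T and NK cell markers, but for 1 of 5 mural markers. The mural name is thus not borne out, and these 1101 nuclei are called mural-gated. Epithelial nuclei numbered 66748, or 1328 to 15425 per gland.

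Libraries of 1 stage did not always carry its milk genes to the same degree. In UMIs per 1000000 UMIs of epithelial nuclei (CPM), LALBA was 0.868 and 63.4 (G90), 664 and 540 (L0), 142 and 3.27 (L20), 0 and 92.9 (PI2), and 0.19 and 0 (PI7). Replicate 2 of L20 was thus almost without LALBA, while replicate 2 of PI2 had more of it than replicate 1 of G90. At L0 replicate 1, LALBA also reached 904 CPM in fibroblast nuclei, 734 in myeloid nuclei and 257 in endothelial nuclei. Neither free RNA nor doublets were measured, and their part in the levels of other classes was not tested.

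Across stages, B4GALT1 was highest in epithelial nuclei at G90 and L0 and lower in the later glands. The glands held 584 and 1060 CPM (G90), 446 and 609 CPM (L0), 228 and 225 CPM (L20), 240 and 369 CPM (PI2) and 169 and 228 CPM (PI7). All 4 glands of G90 and L0 lay above all 6 later glands. The share of all genes that separate the same glands is not given, so whether this is particular to B4GALT1 was not tested. The means, from the highest, were 822 ± 337 (G90), 528 ± 115 (L0), 305 ± 91.5 (PI2), 227 ± 1.99 (L20) and 198 ± 41.9 (PI7) CPM (SD, n = 2 each). In this order the glands of G90 and L0 overlapped, as did those of L20 and PI7, while those of L0 and PI2, and of PI2 and L20, did not. The separation of the early from the later glands did not hold within the secretory subset of epithelial nuclei, those with at least 2 genes of a milk protein list, which numbered 103 to 13434 per gland. There the second L20 gland, at 494 CPM, lay above the first L0 gland, at 455 CPM, and the means were 548 at L0 and 385 at L20.

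The difference of B4GALT1 between L0 and L20 did not pass the test across genes. The log2 fold change of L20 against L0 was -1.62 (SE 0.53), with an unadjusted p of 0.012 and an adjusted p of 0.245 by edgeR's quasi-likelihood test. L0 against G90 gave -0.34 (SE 0.52), PI2 against L20 gave 0.57 and PI7 against PI2 gave -0.87, and L0 against the mean of the other stages gave 1.07 (SE 0.38, edgeR adjusted p = 0.188). The L0 to G90 value rests on the second G90 gland, without which it was 0.46. In all nuclei of each gland together, B4GALT1 went from 425 and 580 CPM at L0 to 216 and 122 at L20, a log2 fold change of -1.98 (edgeR adjusted p = 0.282), and L0 against the other stages gave 1.24 (adjusted p = 0.289). With 1 sow left out at a time, these values ranged from -2.76 to -1.43 and from 0.98 to 1.51. In such whole-gland sums, fewer cells of a type and less RNA per cell cannot be told apart.

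UGP2, the enzyme that makes UDP-glucose, differed widely between glands of the same stage. It held 204 and 432 CPM in the epithelial nuclei of G90, 756 and 338 CPM in those of L0, 966 and 191 CPM in those of L20, 110 and 654 CPM in those of PI2, and 168 and 122 CPM in those of PI7. In each of the 5 stages the gland with more UGP2 was also the gland with more LALBA. At PI7, however, LALBA was at 0.19 and 0 CPM, too low to rank those glands firmly. The log2 fold change of UGP2 was -0.15 for L20 against L0 and 1.09 for L0 against the other stages (edgeR adjusted p = 0.484). The first of these turned positive without the first L0 gland or without the second L20 gland. The second ranged from 0.38 to 1.60 with 1 sow left out at a time.

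The hexokinases gave no call between stages, and both stood highest in the same gland. HK1, the housekeeping hexokinase, held 75.2 and 24.6 CPM in epithelial nuclei (G90), then 21.0 and 40.8 CPM (L0), 60.4 and 78.7 CPM (L20), 66.0 and 153 CPM (PI2) and 79.9 and 70.5 CPM (PI7). The L0 glands lay below the 6 later glands, and overlapped with G90, an order whose share over all genes is not given. HK2, the inducible hexokinase, held 9.77 and 5.24 CPM (G90), 5.78 and 11.3 CPM (L0), 22.4 and 17.7 CPM (L20), 3.02 and 72.6 CPM (PI2) and 15.5 and 10.0 CPM (PI7). Replicate 2 of PI2 had the highest HK1 and the highest HK2 of the 10 glands. Log2 fold changes of L0 against the other stages were -0.81 for HK1 (edgeR adjusted p = 0.432) and -0.55 for HK2 (adjusted p = 0.816), and those of L20 against L0 were 0.73 and 0.85. Without replicate 2 of PI2 the L0 value of HK2 was 0.34.

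SLC35A2, the UDP-galactose carrier, stayed between 10.9 and 21.7 CPM in all glands. Epithelial nuclei held 18.6 and 21.7 CPM (G90), 13.9 and 10.9 CPM (L0), 20.0 and 11.6 CPM (L20), 15.5 and 17.3 CPM (PI2) and 19.6 and 18.7 CPM (PI7). The L0 glands overlapped with L20 and lay below those of the other 3 stages, an order whose share over all genes is not given. Its log2 fold changes were 0.02 for L20 against L0 and -0.16 for L0 against the other stages (edgeR adjusted p = 0.904).

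**Figure D1:**
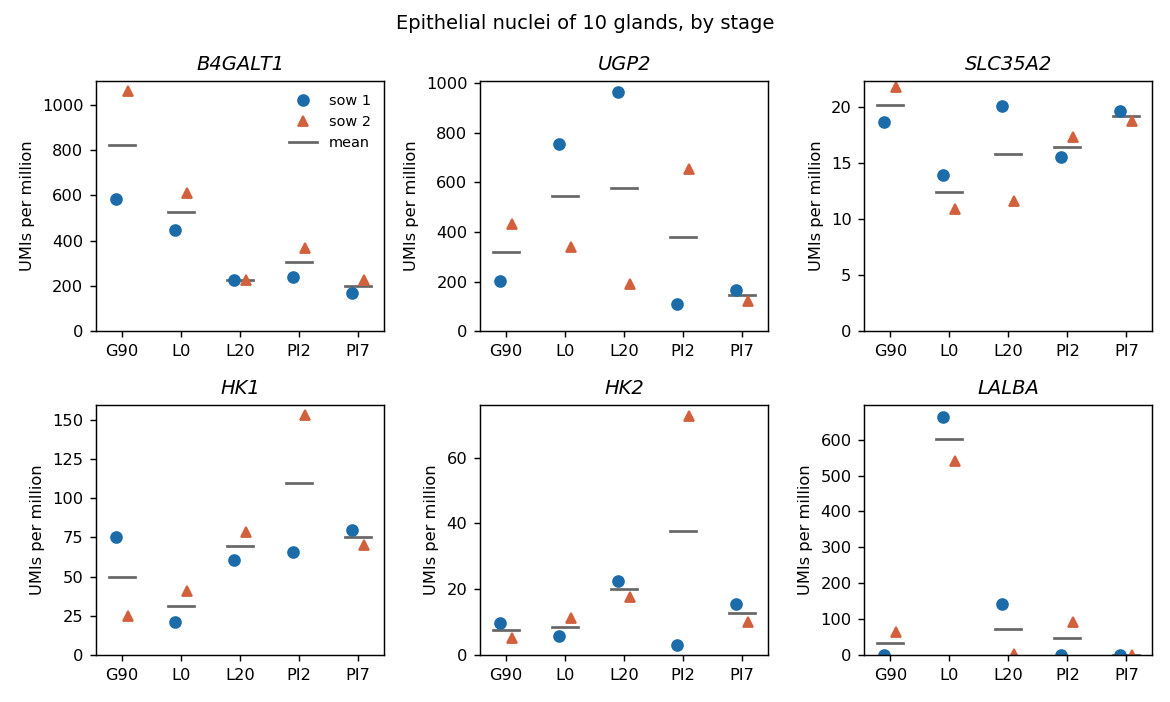
UMIs per 1000000 (vertical axis) of each member tested in the epithelial nuclei of each gland, by stage (horizontal axis), with 1 point per gland and 2 glands per stage. B4GALT1 was between 446 and 1060 in the G90 and L0 glands and between 169 and 369 in the later ones, while UGP2 differed within stages, as between the L20 glands at 966 and 191.

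No member passed the adjusted threshold of 0.05 in any contrast of stages by edgeR with all sows and the filter on low counts. For any difference among stages in epithelial nuclei, B4GALT1 was called without that filter and HK2 without the first PI2 gland. In epithelial nuclei, 0 of 5 members were called for L20 against L0, where 0% of 19683 genes were called, and 0 of 5 for L0 against the other stages, where 2.02% were called. The share of all genes called was 0.00508% for L0 against G90, 0% for PI2 against L20, 0% for PI7 against PI2 and 0.117% for any difference among stages. In whole glands 0 of 5 members were called, beside 0.842% of 22695 genes for L0 against the other stages and 0% for the other contrasts. At an unadjusted p under 0.05, B4GALT1 was the 1 member of 5 that passed in epithelial nuclei for L20 against L0, as did 12.9% of all genes, and for L0 against the other stages, as did 17.4%. It was also the 1 that passed in whole glands, where 12.8% and 14.3% of genes did, and for any difference among stages in both (14% of genes in epithelial nuclei and 10.1% in whole glands). No member passed for the other 3 pairs of stages, where 11.7%, 3.31% and 2.67% of genes did in epithelial nuclei and 7.28%, 3.6% and 2.04% in whole glands (L0 against G90, PI2 against L20, PI7 against PI2). DESeq2 called B4GALT1 for any difference among stages in whole glands and in epithelial nuclei and no other member in any contrast of stages. For any difference among stages, the share of all genes called is given for the main fit only. DESeq2 and the fit without the filter called more genes than the main fit for L0 against the other stages. Nothing here shows that the members did not differ between stages, since each stage held 2 sows.

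Of 63 other pathway genes tested, 1 was called between stages, where 2.02% of all genes were called. GAPDH, a glycolytic enzyme, was lower in epithelial nuclei at L0 than in the other stages (5.26 ± 0.858 CPM against 32.9, log2 fold change -2.08, SE 0.45, edgeR adjusted p = 0.0459). Its call was lost without the first L0 gland (-2.29, edgeR adjusted p = 0.502) or the second (-2.0, adjusted p = 0.492), and also without the first G90, first L20 or either PI7 gland, with the replicate block, with no second list and with classes from clusters. SLC5A1, a sodium-coupled glucose carrier, held 214 and 372 CPM at G90 and 37.5 to 120 in the other 8 glands. It did not pass the threshold in any contrast. It was named after its values were seen, and the share of all genes with that separation is not given. In epithelial nuclei the median log2 fold change of L0 against the other stages was -0.36 over the 63 pathway genes and -0.05 over all genes tested.

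Between classes of nuclei within the same glands, B4GALT1 and UGP2 were higher in epithelial nuclei than in most others, while the hexokinases were lower in epithelial than in myeloid nuclei. Sums per sow and class were compared in edgeR over 12601 genes, with a block for each sow. Of the 5 members, 2 were called against myoepithelial nuclei, where 36.8% of all genes were called, and 2 against fibroblast nuclei (51.6%). Against mural-gated nuclei 3 were called (39.4%), against endothelial nuclei 4 (52.7%), against myeloid nuclei 5 (52.3%) and against T and NK cell nuclei 4 (54.3%). Any difference among classes was called for 5 of 5 members and 83.4% of genes, so being called here says little of a member.

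B4GALT1 was higher in epithelial nuclei in every one of the 10 sows and against each of the 6 classes. Its lowest, median and highest values over glands were 63.9, 97.5 and 286 CPM in myoepithelial nuclei, 65.3, 164 and 405 in fibroblast nuclei, 91.7, 128 and 267 in endothelial nuclei, 121, 145 and 395 in myeloid nuclei, and 97.5, 169 and 392 in T and NK cell nuclei. Epithelial nuclei held 416 ± 275 CPM (SD, n = 10). The log2 fold changes were 1.68 (SE 0.18) against myoepithelial, 1.41 (SE 0.17) against fibroblast, 1.25 (SE 0.18) against mural-gated, 1.41 (SE 0.17) against endothelial, 1.27 (SE 0.17) against myeloid and 1.35 (SE 0.18) against T and NK cell nuclei. The edgeR adjusted p-values ran from 5.13e-12 to 8.36e-08.

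The classes with less B4GALT1 also had fewer UMIs per nucleus. Median UMIs were 2380 in epithelial, 1574 in myeloid and 985 in T and NK cell nuclei, and the part of depth was not tested. The scaling of libraries moved all genes, the median log2 fold change being 0.11 to 0.28 over the 6 classes. Under other scalings or without the filter on low counts the value of B4GALT1 less the median of all genes stayed between 1.48 and 1.52 against myoepithelial and between 0.91 and 0.97 against mural-gated nuclei.

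UGP2 was called higher in epithelial nuclei against all 6 classes, less firmly against mural-gated and endothelial nuclei. Its values over glands were 49.9, 161 and 473 CPM in myoepithelial nuclei, 61.7, 136 and 397 in fibroblast nuclei and 86.4, 119 and 374 in myeloid nuclei (lowest, median, highest), against 394 ± 300.5 in epithelial nuclei. The log2 fold changes were 1.24 (SE 0.23), 1.31 (SE 0.22) and 1.24 (SE 0.22) in that order, with the epithelial nuclei higher in 10 of 10 sows each time. Against T and NK cell nuclei it was 1.42 (SE 0.23), higher in 9 of 10. Against mural-gated nuclei the value was 0.78, higher in 7 of 10 sows, and against endothelial nuclei 0.71, higher in 9 of 10. Both calls were lost with the size factors of DESeq2, at 0.37 and 0.45, and without the sow as a block, at 0.66 (edgeR adjusted p = 0.289) and 1.01 (adjusted p = 0.0664). The mural-gated value was 0.43 and not called without scaling beyond total UMIs. The mural-gated call was also lost without the first G90 gland or the first PI7 gland, and the endothelial call without the first L20 gland.

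**Figure D2:**
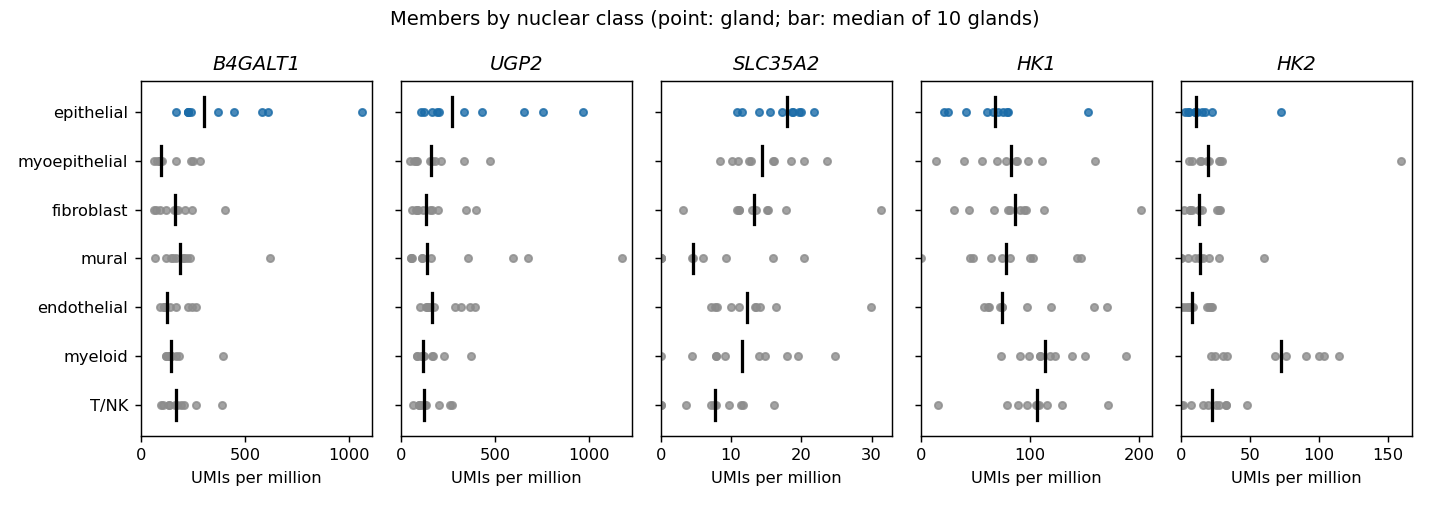
UMIs per 1000000 (horizontal axis) of each member in each class of nuclei (vertical axis), with 1 point per gland and a bar at the median of 10 glands. B4GALT1 ranged from 169 to 1060 in epithelial nuclei against 121 to 395 in myeloid nuclei, and HK2 from 3.02 to 72.6 against 22 to 115.

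HK2 was lower in epithelial than in myeloid nuclei in 10 of 10 sows. Myeloid nuclei held 22 and 33.2 CPM (G90), 24.7 and 30.2 CPM (L0), 99.7 and 103 CPM (L20), 68.2 and 75.9 CPM (PI2) and 115 and 90.6 CPM (PI7). The 4 glands of G90 and L0 lay below the 6 later ones in the myeloid nuclei, a difference that was not tested. HK2 counts in myeloid nuclei ran from 2 to 728 UMIs per gland, so some of these values rest on few UMIs. The share of all genes with that separation is not given. The log2 fold change of epithelial against myeloid nuclei was -2.20 (SE 0.29, edgeR adjusted p = 1.07e-09). HK2 was not called against the other 5 classes, with values from -0.66 to 0.38, of which the first, against myoepithelial nuclei, was called under 6 alternatives that kept all sows, among them DESeq2 (-0.96, DESeq2 adjusted p = 0.0279). Without the filter on low counts HK2 was called higher than in endothelial nuclei (0.81, edgeR adjusted p = 0.0229).

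HK1 was lower in epithelial than in myeloid nuclei in 10 of 10 sows as well. Myeloid nuclei held 73.5 to 187 CPM, with a mean of 120 ± 32.5, and epithelial nuclei 21.0 to 153, with a mean of 67.0 ± 37.2 (SD, n = 10). The log2 fold change was -0.81 (SE 0.19, edgeR adjusted p = 0.000274). Against T and NK cell nuclei it was -0.49 (adjusted p = 0.0298), lower in 9 of 10 sows, and against endothelial nuclei -0.44 (adjusted p = 0.0408), lower in 6 of 10. Against fibroblast nuclei HK1 was not called at -0.40 (adjusted p = 0.0611), lower in 9 of 10 sows. It was called there under 7 alternatives that kept all sows, among them DESeq2 (-0.66, DESeq2 adjusted p = 0.000383), and when any of 4 single glands was left out (the first G90, first or second L20, or first PI7 gland), and it was 0.033 without the filter on low counts. Without the filter on low counts, which moved the median of all genes up by 0.43 to 0.60, HK1 was 0.093 against T and NK cell nuclei, -0.012 against endothelial nuclei and -0.32 against myeloid nuclei, none of them called. The T and NK cell and endothelial calls were also lost without the sow as a block, with classes from clusters and when nuclei with 2 markers of a second list were left out (edgeR adjusted p = 0.0513 and 0.153), and each without the second G90 gland or the first L0 gland. The endothelial call was lost as well without the second L0 gland or the first L20 gland. Less the median of all genes, its value against myeloid nuclei stayed between -0.92 and -0.91 under all scalings.

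SLC35A2 was called higher in epithelial nuclei against 4 classes. Its log2 fold change was 1.67 (SE 0.36) against mural-gated nuclei, which held 12 UMIs of it in all, 1.21 (SE 0.27) against T and NK cell nuclei, 0.64 (SE 0.21) against endothelial and 0.58 (SE 0.23) against myeloid nuclei. The epithelial level was higher in 9 of 10 sows against T and NK cell nuclei and in 8 of 10 against each of the others. The endothelial and myeloid calls were lost with the size factors of DESeq2 (0.42 and 0.37), without the block for sows and without the first G90 gland. The myeloid call was lost as well without either L20 gland or the second PI2 gland. Under strict limits on nuclei, and without the first PI7 gland, SLC35A2 did not pass the filter on low counts and had no test against any of the 6 classes. Both were also lost with no second list, the myeloid call with DESeq2, without scaling beyond total UMIs and with 3 markers per gate, and the endothelial call with classes from clusters. Against myoepithelial and fibroblast nuclei the values were 0.55 (edgeR adjusted p = 0.0742) and 0.33 (adjusted p = 0.167). Without the filter on low counts both were called, at 1.1 and 0.76, and the first was also called with 3 markers per gate (0.72) and without either L0 gland (0.67 and 0.64).

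**Figure D3:**
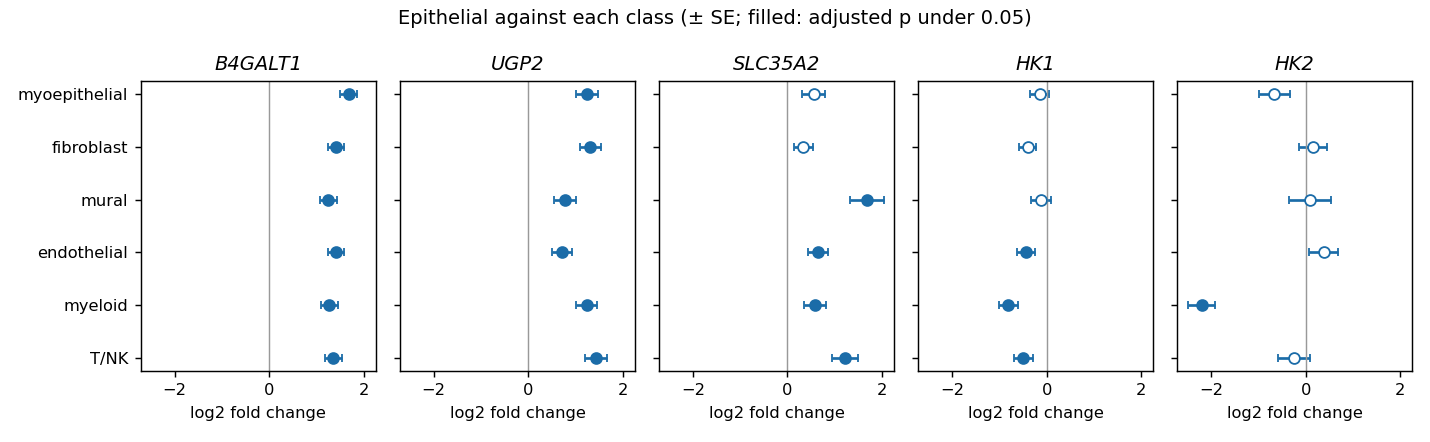
Log2 fold change of epithelial nuclei against each class (horizontal axis, bars ± SE, n = 10 sows) for each member, filled where the edgeR adjusted p is under 0.05. B4GALT1 lay at 1.25 to 1.68 and UGP2 at 0.71 to 1.42, while HK2 stood at -2.20 against myeloid nuclei.

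Of the 58 other pathway genes tested, 13 were higher and 9 lower in epithelial than in myoepithelial nuclei, beside 23.8% and 13.1% of all genes. Against fibroblast nuclei 14 and 13 were called (29% and 22.5% of all genes), against mural-gated nuclei 10 and 7 (26.5% and 12.9%), and against endothelial nuclei 17 and 14 (30.4% and 22.3%). Against myeloid nuclei 14 were higher and 21 lower (29.8% and 22.5%), and against T and NK cell nuclei 11 and 8 (32.8% and 21.6%). SLC5A1 was among the largest against mural-gated nuclei, at 1.13, and TXNIP, which holds back glucose uptake, was 2.20 higher against T and NK cell nuclei, both as log2 fold changes. A list of glucose and related sugar carriers also held TXNIP, which is not a carrier, and 9 of its genes were tested. Of these, 2 were higher and 3 lower against each of myoepithelial, fibroblast and mural-gated nuclei. Against endothelial nuclei 2 were higher and 2 lower, against myeloid nuclei 3 and 3, and against T and NK cell nuclei 3 and 1. Those lower included SLC2A5 at -3.41 and SLC2A6 at -3.36 against myeloid nuclei, SLC2A12 at -2.69 against myoepithelial and SLC2A10 at -2.85 against fibroblast nuclei. Of 14 glycolysis and lactate genes, 2 were higher and 2 lower against myoepithelial nuclei, 1 and 2 against fibroblast, 2 and 2 against mural-gated, 2 and 8 against endothelial, 1 and 8 against myeloid and 0 and 4 against T and NK cell nuclei, with LDHA, a lactate dehydrogenase, at -2.04 and GAPDH at -1.69 against myeloid nuclei. LALBA itself was higher by 1.05 against myoepithelial, 1.64 against endothelial, 1.3 against myeloid and 1.89 against T and NK cell nuclei. In that order it was higher in 6, 6, 5 and 6 of 10 sows and lower in 2, 2, 3 and 2. LALBA was not called against fibroblast (0.55) or mural-gated nuclei (0.63). The share of all calls that were higher in epithelial nuclei was 56.3% to 67.2% over the 6 classes, 28.0% to 41.4% with the size factors of DESeq2, and 79.2% to 89.3% without the filter on low counts. The counts of higher and lower genes therefore depend on the scaling.

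Among epithelial nuclei, those gated by milk protein genes (secretory, 32517 nuclei) had more B4GALT1 and UGP2 and less HK1 than those with hormone receptor transcripts (hormone-sensing, 5650 nuclei or 28 to 1357 per gland). Both subsets were set by at least 2 genes of lists that hold none of the members, the secretory genes found in the tables being 3 caseins and LALBA. LALBA itself was 0 CPM in the secretory nuclei of the first PI2 and the second PI7 gland. It also stood outside epithelial nuclei, as at 709 CPM in myoepithelial nuclei of the first L0 gland. The part of free milk protein RNA in this gate, and in the levels of the members there, was not tested. The median UMIs per nucleus were 2693 in secretory and 3110 in hormone-sensing nuclei. Of the 5 members, 3 were called by edgeR with the sow as a block, where 9.58% of 15079 genes were called, 4.47% higher and 5.11% lower in secretory nuclei.

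B4GALT1 held 922 and 1105 CPM in the secretory nuclei of the G90 glands and 429 and 446 in the hormone-sensing nuclei of the same glands. At L0 the pairs were 455 against 168 and 641 against 302, and at L20 they were 276 against 164 and 494 against 201. Those of PI2 were 323 against 210 and 403 against 146, and those of PI7 were 169 against 183 and 271 against 214. Secretory nuclei were thus higher in 9 of 10 sows, the first PI7 gland being the exception. The log2 fold change was 0.99 (SE 0.15, edgeR adjusted p = 3.43e-05), beside a median of 0.10 over all genes.

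UGP2 held 244 and 440 CPM in secretory nuclei at G90 against 181 and 298 in hormone-sensing nuclei. At L20 the values were 1391 and 323 against 592 and 151, and at PI2 168 and 730 against 101 and 348. Secretory nuclei were higher in 9 of 10 sows, and the first L0 gland, at 765 against 826, was the exception. The log2 fold change was 0.76 (SE 0.12, edgeR adjusted p = 4.7e-05).

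HK1 went the other way. Secretory nuclei held 62.5 and 23.3 CPM (G90), 20.6 and 38.8 CPM (L0) and 46.5 and 37.2 CPM (L20). Hormone-sensing nuclei of the same glands held 88.7 and 73.6 CPM, 61.2 and 92.5 CPM, and 62.5 and 90.2 CPM. Secretory nuclei were lower in 9 of 10 sows, with the second PI2 gland, at 147 against 128, as the exception. The log2 fold change was -0.60 (SE 0.15, edgeR adjusted p = 0.00994). SLC35A2 (0.48, SE 0.20, adjusted p = 0.141) and HK2 (0.45, SE 0.30, adjusted p = 0.407) were not called, with SLC35A2 higher in secretory nuclei in 9 of 10 sows and HK2 in 6 of 10. The lowest counts in the hormone-sensing nuclei of a gland were 11 UMIs of B4GALT1, 34 of UGP2 and 4 of HK1. They were 0 for SLC35A2 and HK2, so some of these pairs rest on few UMIs.

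The calls between the subsets rest on pairing within sows. Without the sow as a block, 0 of 5 members were called, and B4GALT1 had an edgeR adjusted p of 0.0817. The log2 fold changes were then 1.13 for B4GALT1, 0.80 for UGP2 and -0.58 for HK1, beside 0.99, 0.76 and -0.60 with the block. Among 60 other pathway genes, LALBA was called higher in secretory nuclei (4.07). As a gene of the secretory gate its outcome was set in advance, so this call is no result. RPIA of the pentose phosphate path was higher (0.48, edgeR adjusted p = 0.0410). The lactate carrier SLC16A1 (-0.71, adjusted p = 0.0147) and B4GALT6, which makes lactosylceramide (-1.42, adjusted p = 0.00228), were lower in secretory nuclei.

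**Figure D4:**
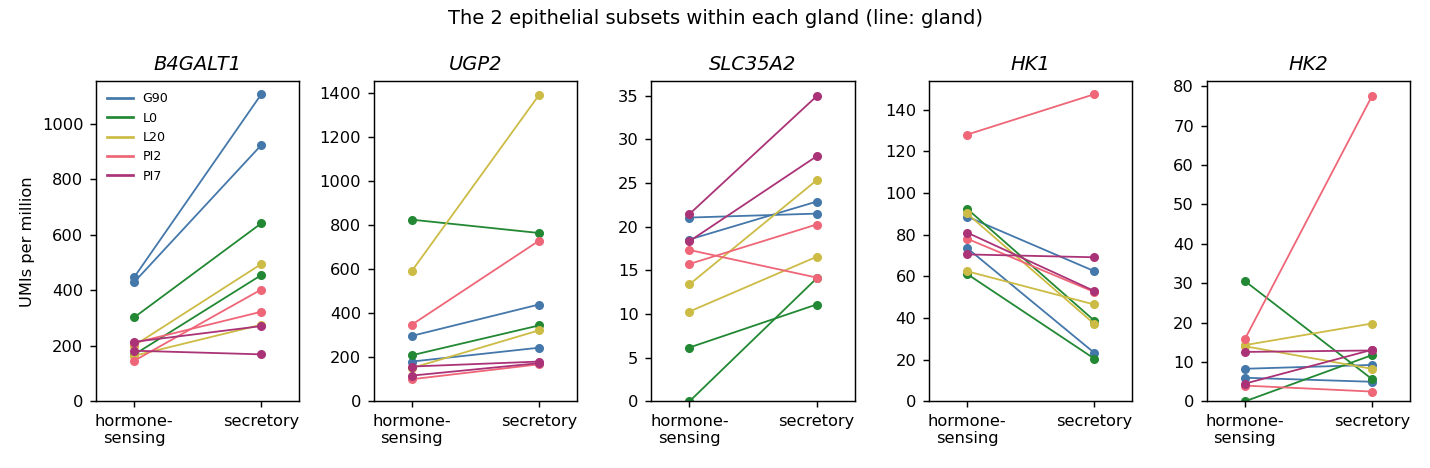
UMIs per 1000000 (vertical axis) of each member in hormone-sensing and secretory epithelial nuclei (horizontal axis), with 1 line per gland. The lines of B4GALT1 rose in 9 of 10 glands and those of HK1 fell in 9 of 10.

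In milk, epithelial cells carried more B4GALT1, UGP2 and SLC35A2 than neutrophils of the same library, and less HK1 and HK2. Each stage had 1 milk library, so there is no test between stages, and the exact Poisson intervals (95%) cover counting error only. In all, 32085 of 40990 barcodes were kept and 25445 had a class. Epithelial cells numbered 2892 at L0 and 1030 at L20, and neutrophils 9649 and 5732. The neutrophil class was set by 7 markers found of 10. CXCL8, a check marker outside the gate, was highest there among the 4 largest milk classes in each library.

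B4GALT1 was at 418 CPM (412 to 423) in epithelial cells at L0 and 276 (266 to 288) at L20, against 72.0 and 42.8 in neutrophils. The log2 ratio of L0 to L20 in epithelial cells was 0.60 (0.54 to 0.66). UGP2 was at 266 (262 to 270) and 198 (189 to 208) CPM, against 76.3 and 81.2 in neutrophils, with a ratio of 0.42 (0.35 to 0.49). SLC35A2 had the largest difference of the 3, at 61.9 (59.8 to 64.0) and 26.1 (22.9 to 29.6) CPM and a ratio of 1.25 (1.06 to 1.44). LALBA went the other way, with 29545 CPM at L0 and 38171 at L20.

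HK1 was at 17.5 CPM (16.4 to 18.6) in epithelial cells at L0 and 24.2 (21.1 to 27.6) at L20. It was at 73.5 and 39.5 CPM in neutrophils, at 136 and 101 in myeloid cells, and at 157 and 171 in T and NK cells. HK2 was at 6.15 CPM (341 UMIs) and 2.19 CPM (20 UMIs) in epithelial cells, 34.9 and 36.3 in neutrophils, and 38.3 and 60.7 in myeloid cells. Both hexokinases were thus lower in milk epithelial cells than in neutrophils and myeloid cells of the same library. The log2 ratios of epithelial cells to neutrophils were 2.54 for B4GALT1, 1.8 for UGP2, 2.79 for SLC35A2, -2.07 for HK1 and -2.50 for HK2 at L0. At L20 they were 2.69, 1.29, 2.37, -0.71 and -4.05 in the same order. LALBA was at 1593 CPM in neutrophils at L0 and 589 at L20. Neither free RNA nor doublets were measured in milk, and their part in the neutrophil levels was not tested.

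**Figure D5:**
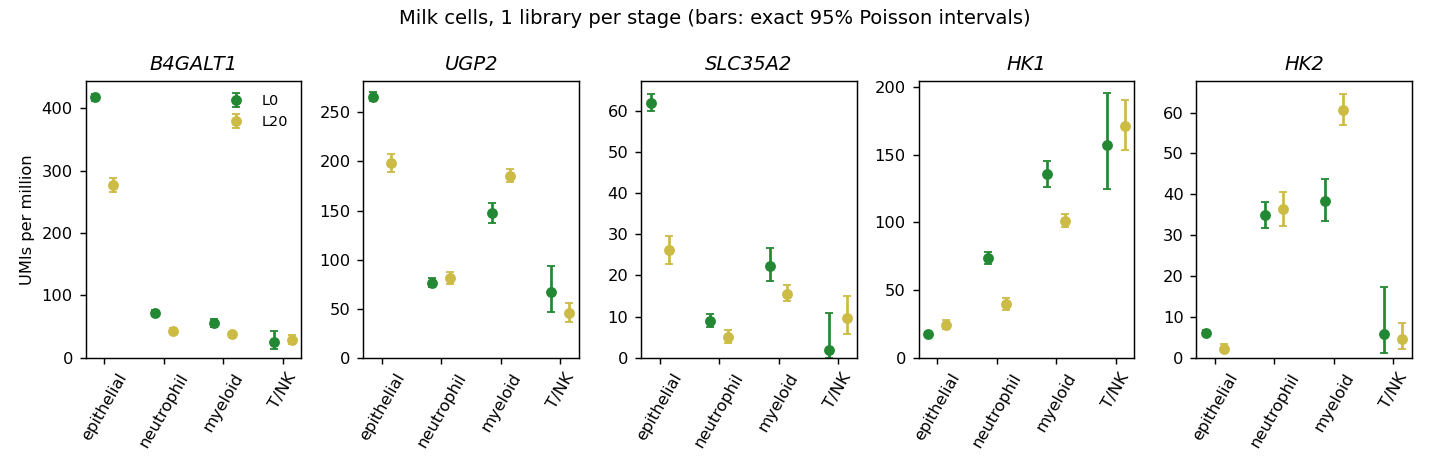
UMIs per 1000000 (vertical axis) of each member in the 4 largest milk cell classes (horizontal axis) of the L0 and L20 libraries, with exact 95% Poisson intervals. Epithelial cells stood at 418 and 276 for B4GALT1, and HK1 was highest in T and NK cells at 157 and 171.

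In the sections, B4GALT1 and UGP2 were higher at G90 than at PI2 and HK1 was lower. The G90 section held 4721 spots and the PI2 section 2248, a spot being a small region that can hold several cells. B4GALT1 was at 223 CPM (219 to 228) at G90 and 68.2 (64.4 to 72.1) at PI2, a log2 ratio of 1.71. UGP2 was at 126 (123 to 130) and 44.5 (41.5 to 47.7), a ratio of 1.5, and SLC35A2 at 31.7 and 20.4, a ratio of 0.64. HK1 was at 40.3 (38.4 to 42.3) and 67.9 (64.1 to 71.8), a ratio of -0.75. HK2 was at 2.13 and 1.84, with an interval of the ratio from -0.38 to 0.83 that holds 0. The gene labelled PGM1 was at 3.46 and 4.36 CPM. With 1 section per stage, stage and section cannot be told apart, and LALBA was at 113 and 0.558 CPM.

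Within a section, spots were ranked by the share of epithelial marker UMIs, and the highest and lowest 25% were compared. B4GALT1 was at 222 CPM in the epithelial-rich spots at G90 and 179 in the lowest 25%, a log2 ratio of 0.32 (0.22 to 0.42), while the whole G90 section stood at 223. It was at 71.1 and 56.0 at PI2, a ratio of 0.34 (0.04 to 0.66). UGP2 had ratios of 0.39 at G90 and 0.38 at PI2. SLC35A2 was at 33.7 against 30.5 CPM at G90, a ratio of 0.14 (-0.10 to 0.39) whose interval holds 0, and at 24.3 against 12 CPM at PI2, a ratio of 1.02 (0.39 to 1.70). LALBA had a ratio of 0.10 at G90 (-0.034 to 0.24), whose interval holds 0. Between the highest and lowest 10% of spots the ratio of B4GALT1 at PI2 was -0.058.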

How the data were processed

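Nuclei of 10 glands, cells of 2 milk samples and spots of 2 sections were used. The deposited values are UMI counts per gene and barcode without normalization. Per the paper's methods, CeleScope counted the nuclei and milk libraries and Space Ranger the sections on Sscrofa11.1; the methods do not give a single version of it, and the file header gives 1.3.1. The annotation release, the use of intronic reads and the strand setting are not given in the sources used, so overlapping genes cannot be separated.

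The members, marker lists and pathway lists were chosen with earlier results of these data known. The contrast of L0 against the other stages was added knowing from those results that caseins peak at L0. Nuclei and milk cells needed 300 genes and at most 25% mitochondrial UMIs. No doublet caller was run, and an alternative leaves out nuclei with 2 markers of a second list. UMIs were summed per sow and class with at least 20 nuclei. edgeR 4.0.16 (quasi-likelihood, TMM, filterByExpr) fitted stages in 1 model and classes with the sow as a block, and genes were called at a Benjamini-Hochberg adjusted p under 0.05 over all genes tested. DESeq2 1.42.0, scanpy 1.11.5 and scipy 1.17.1 were also used, and the fits were tested on simulated data. The SE is the log2 fold change over the square root of F. CPM are UMIs per 1000000 UMIs of the class.

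The genes named are the members, LALBA, and the pathway genes called, or the 5 with the largest fold change where more were called. SLC5A1 was named by level after its values were seen where no call was made. One gene that this rule would name is not reported here. Precision is set by 2 sows per stage and by the total UMIs given in the text. Alternatives were another scaling, no filter, other limits, gates and clusters, a fold limit, no block, and leaving out each sow. Histology was not used here.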

Additional observations from a re-analysis of the deposited data

Results flagged for a closer look

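For some members, the mean log2 ratio of epithelial to other nuclei pointed one way in both sows of 1 stage and the opposite way in both sows of another. With 2 sows per stage these differences between stages were not tested, and several rest on few UMIs. HK1 against mural-gated nuclei stood at 0.333 at PI2 and -1.52 at L0. The mural-gated nuclei held 10 and 7 UMIs of HK1 at PI2 and 9 and 18 at L0. HK2 against fibroblast nuclei stood at 0.944 at PI2, -0.306 at G90 and -0.299 at L0. The fibroblast nuclei held 5 and 9 UMIs of HK2 at PI2, 31 and 5 at G90, and 3 and 1 at L0. HK2 against mural-gated nuclei stood at 0.744 at L20 and -0.759 at PI7, where the mural-gated nuclei held 1 and 3 UMIs of HK2 at L20 and 8 and 9 at PI7. SLC35A2 against myoepithelial nuclei stood at 0.615 at G90, 0.261 at L20, 0.313 at PI2 and 0.603 at PI7, and at -0.768 at L0. The myoepithelial nuclei held 2 to 13 UMIs of SLC35A2 per gland over all stages, with 3 and 2 at L0. SLC35A2 against endothelial nuclei stood at 0.649 at G90, 0.574 at L20, 0.884 at PI2 and 0.896 at PI7, and at -0.739 at L0. The endothelial nuclei held 2 to 50 UMIs of SLC35A2 per gland over all stages, with 14 and 2 at L0. At L0, LALBA reached 709 CPM in the myoepithelial and 257 CPM in the endothelial nuclei of replicate 1, and the part of such transcripts was not tested.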

How the results depend on the processing

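Among single values of the members and LALBA under alternatives other than leaving out a sow, 426 kept their direction and side of the threshold, 17 gained a call, 38 lost one, 15 reversed, and 5 milk ratios of LALBA moved. Among counts of members called and the main milk and section ratios, 225 stayed and 20 moved. A count of members that changed by 1 was taken as having stayed, unless the main count was 0. Against fibroblast nuclei, for example, 3 rather than 2 members were called with DESeq2, and this was not taken as moved. B4GALT1 against the 6 classes was called in every alternative, with adjusted p-values of 1.97e-17 to 0.00237. The limit on all stage results is 2 sows per stage, and on HK2, SLC35A2 and mural-gated nuclei the low counts. The setting without scaling beyond total UMIs was chosen after seeing the data. SLC35A2 had no value between classes under strict limits on nuclei or without replicate 1 of PI7, since it did not pass the filter there. Except where a setting leaves out samples or genes, the cause of a change was not tested.

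For any difference among stages, DESeq2 called 1 member in whole glands and 1 in epithelial nuclei, and 1 was called in epithelial nuclei with no filter (B4GALT1 each time). Against myoepithelial nuclei 4 members were called with 3 markers per gate. Against endothelial nuclei 2 were called with DESeq2 size factors, 2 with no second list, 2 with classes from clusters, 1 with no sow block and 1 with a log2 fold change over 1, a limit that left 3 against myeloid nuclei. Between secretory and hormone-sensing nuclei, 0 were called with no sow block and 0 with the fold limit. The shares of all genes called under these settings are not given beside these counts.

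Reversed values were as follows. For L20 against L0 in epithelial nuclei, UGP2 was 0.081 with no scaling and SLC35A2 was -0.034 with clusters. HK1 with no filter was 0.40 against myoepithelial, 0.033 against fibroblast, 0.47 against mural-gated and 0.093 against T and NK cell nuclei, and 0.16 with clusters against mural-gated nuclei. HK2 against fibroblast nuclei was -0.11 with DESeq2 size factors and -0.047 with DESeq2, and against mural-gated nuclei -0.18 with no scaling, -0.29 with DESeq2 size factors and -0.33 with DESeq2. HK2 against T and NK cell nuclei was 0.38 with no filter, 0.018 with no second list and 0.0018 with no sow block. With 500 genes and at most 10% mitochondrial UMIs, the milk ratios of epithelial cells to neutrophils moved to 2.41 (B4GALT1), 1.52 (UGP2) and -2.77 (HK2) at L0 and to 0.90 (UGP2) and -1.29 (HK1) at L20. With 10% of spots, the section ratios moved to 0.49 (G90, B4GALT1), -0.058 (PI2, B4GALT1) and -0.78 (PI2, HK1). With the main choice of 25% of spots, the HK1 ratio at PI2 was -0.24 (-0.51 to 0.033).

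Leaving out 1 sow at a time gave these ranges. B4GALT1 in L0 against G90 was -0.85 to 0.46. In L20 against L0, UGP2 was -2.18 to 0.66 and SLC35A2 -0.77 to 0.52. In L0 against the other stages, HK2 was -1.20 to 0.34 and SLC35A2 -0.38 to 0.039. For any difference among stages in epithelial nuclei, 0 to 1 members were called, HK2 without replicate 1 of PI2. Against fibroblast nuclei HK2 was -0.048 to 0.20, and against mural-gated nuclei HK1 was -0.28 to 0.094 and HK2 -0.16 to 0.40. Members called ranged from 1 to 3 against mural-gated nuclei, 1 being the count without replicate 1 of PI7, and from 2 to 4 against endothelial nuclei, 2 being the count without replicate 1 of L20.

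Sows were euthanized at each stage, so replicate numbers do not join samples of 1 sow. Same-numbered deviations correlated at -0.43 to 0.27 in epithelial nuclei, over 0.1 in 3 of 10 pairs. In whole glands they correlated at -0.47 to 0.36, over 0.1 in 2 of 10. Whether libraries of the same number share a batch was not tested. With the replicate block 0 members were called, and genes called for L0 against the other stages went from 397 to 154 in epithelial nuclei and from 191 to 73 in whole glands. The same counts were 1634 and 1479 with DESeq2, 894 and 565 with no filter, and 185 and 63 with no scaling. They fell to 1 and 0 without the first L0 sow and to 15 and 0 without the second. For L20 against L0, DESeq2 called 879 and 1157 genes. The share of L0 calls that were higher was 88.9% in epithelial nuclei, 66.5% with no scaling and 53.1% with DESeq2. Between secretory and hormone-sensing nuclei, 1445 genes were called, 952 under strict limits, 248 with no sow block and 621 with the fold limit.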

Other observations

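Adipocyte nuclei were few, 662 in all and 3 to 519 per gland, and entered no test. Their total UMIs ran from 3260 to 2098238 per gland. They held 355 UMIs of HK2, of which 300 were in replicate 2 of L20, at 143 CPM. HK2 was at 1098 CPM in replicate 2 of PI2 and 93.7 to 177 CPM in the other L20, PI2 and PI7 glands. Apart from replicate 2 of L20, these values rest on few UMIs. In the G90 and L0 glands HK2 was not detected in the few adipocyte nuclei, which does not show that it was absent. UGP2 reached 2572 CPM in the adipocyte nuclei of replicate 1 of L20 and 40.2 to 575 CPM in the other glands. Of its 641 UMIs there, 528 were in replicate 2 of L20, so the value of 2572 CPM rests on few UMIs.

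Over the 10 epithelial sums, the genes with the pattern most like each member were found by Pearson's r of log2 CPM, as a description with no test, since the points share library and depth. They were MRAP2 (r = 0.967), LARP1B (0.954) and ZNF783 (0.948) for B4GALT1, and GPAT4 (0.937), HPS5 (0.931) and SPINK9 (0.916) for UGP2. For HK1 they were KRT80 (0.961), GATAD2A (0.959) and AKNA (0.957), for HK2 TSKU (0.961), LITAF (0.956) and PIK3CB (0.953), and for SLC35A2 TMEM11 (0.955), CNPY2 (0.944) and MAGED1 (0.936). Among the members and LALBA, UGP2 and LALBA had the highest r at 0.878, HK1 and HK2 were at 0.688, and B4GALT1 was at 0.507 with LALBA and -0.55 with HK1.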
